A study of Arabidopsis thaliana with 4 samples.

Results

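The autonomous pathway genes are a group of Arabidopsis thaliana loci that keep the floral repressor FLC low in every day length. The 9 genes described here are FCA, FPA, FY, FLK, FLD, FVE, MSI5, HDA6 and LD. They were chosen by locus identifier. No measured value entered that rule, though earlier results of these data were known when it was made. All 9 were found among the 30361 gene models on the array.

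The study compared TEKi seedlings, T3 plants that carry an artificial microRNA (amiTEK) against TEK and are labelled as late flowering, with wild-type seedlings labelled as having normal flowering time. Both were in the Landsberg erecta (Ler) background, grew on MS medium plates and were harvested at day 7. The targeted gene TEK (TRANSPOSABLE ELEMENT KILLER, AT2G42940) codes for a DNA-binding protein of the AT-hook type. Each group had 2 arrays of total RNA from separate cultures, labelled with Cy3, and the sources used here give neither the promoter of the transgene nor the number of independent lines.

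The pathway works on FLC chromatin and on antisense transcripts of FLC known as COOLAIR. FCA, FPA and FY favour early cleavage and polyadenylation of the antisense transcript, FLK binds RNA of FLC, and FLD and partner proteins lower active histone marks at FLC. FVE, MSI5 and HDA6 belong to histone deacetylase complexes, and in the literature TEK binds FVE and MSI5 and acts with these complexes at its targets. Loss of a pathway gene typically raises FLC and delays flowering.

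The array files and the series value table did not assign the arrays to the same samples. Each column of the value table equalled 1 array file at all 30361 models, but its TEKi 1 column held the array filed as wild type 2, and its wild type 2 column held the array filed as TEKi 1. TEKi 2 and wild type 1 were the same arrays in both sources. Arrays are named here by the array files, every comparison uses both sets of labels in turn, and none was reassigned by its values. TEK itself, on the same arrays, had intensities of 9864 and 13770 on TEKi 1 and TEKi 2. It had 13406 and 14118 on wild type 1 and wild type 2. TEK was not called with either set of labels (adjusted p = 1 with array-file labels and 0.694 with value-table labels, limma). Its log2 difference, TEKi minus wild type, was -0.24 with array-file labels, where the groups overlapped. With value-table labels it was 0.28, and both TEKi arrays were above both wild-type arrays, as in 27.7% of all genes. FLC, the target of the pathway, had 15709 and 314 on TEKi 1 and TEKi 2, against 30904 and 767 on wild type 1 and wild type 2. FLC was thus high on wild type 1 and TEKi 1 and low on the other 2 arrays, a 98.6-fold range.

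Values are intensities on a linear scale, already normalized and summarised by RMA, and a log2 difference is TEKi minus wild type. For arrays, their number limits the precision. Intensities of different genes come from different probes, so genes are compared only by how each differs between arrays. The samples are seedlings, in which fewer cells of a type and less RNA per cell cannot be told apart. All 5 shoot markers (RBCS1A, CAB3, CAB1, RCA and LHCB5) and all 5 root markers (PIN2, COBL9, SHR, PYK10 and SCR) were at 9155 or above on every array, while the 5 flower markers did not exceed 1666 and PI and AMS were in the lowest quartile of genes. Summed intensity of 5 seed markers was 64285 and 45783 on TEKi 1 and TEKi 2, against 91830 and 14363 on wild type 1 and wild type 2. The part of the seed markers in the values below was not tested.

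None of the 9 genes was called as different between TEKi and wild type at adjusted p under 0.05 with either set of labels. The test uses a spread that limma shares over all genes. It can be wider than a gene's own, as for FLK with array-file labels (SE 0.166 against 0.052 with plain per-gene variance). With plain per-gene variance 0 of the 9 were called too. With array-file labels the 9 log2 differences lay between -0.15 and 0.09, with a median of -0.06 against 0.0060 over the 30352 genes tested, and every adjusted p was 1 (limma, Benjamini-Hochberg over all genes tested). With value-table labels they lay between -0.20 and 0.42, with a median of -0.13 against 0.090 over all genes, and adjusted p ran from 0.565 to 0.969. The share of all genes called was 0% with array-file labels and 2.22% with value-table labels, and 0 of the 9 were called with either. The 2.22% (674 genes) became 0 genes with the replicate number as a block, with plain per-gene variance and without any 1 of the 4 arrays. With value-table labels the replicate number divides the arrays exactly as the array-file groups do, so that block is the other set of labels. At an unadjusted p under 0.05, 0 of the 9 passed with either set of labels, where 4.61% and 14.4% of all genes did.

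**Figure D1:**
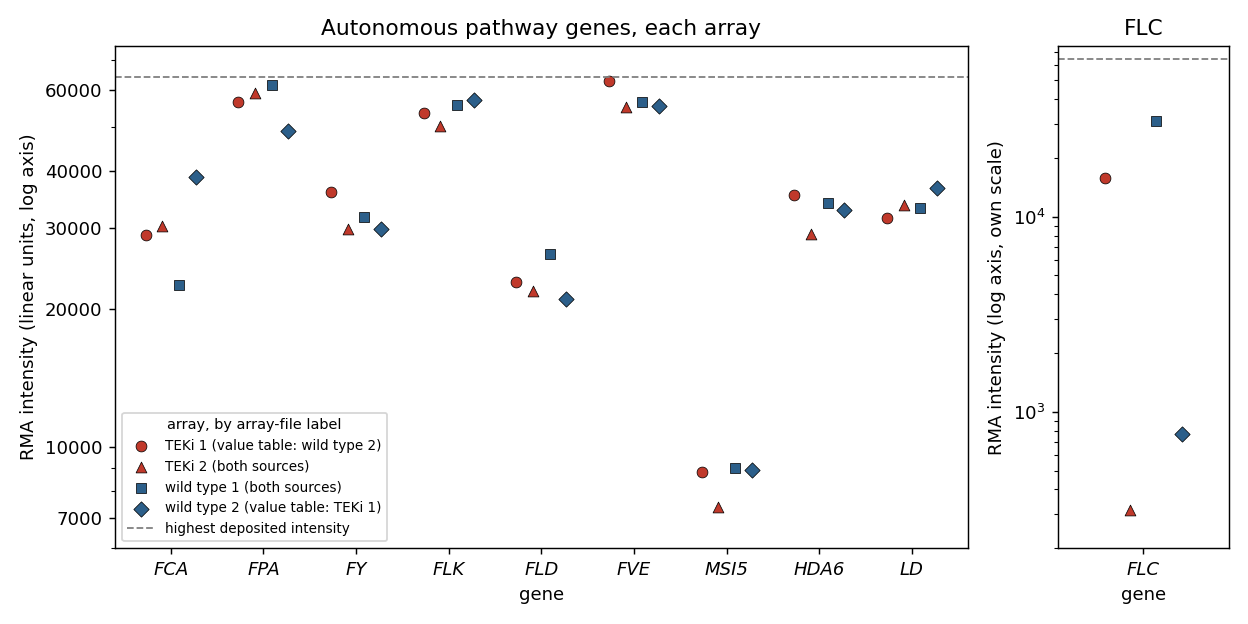
Deposited intensity of the 9 autonomous pathway genes (left, log axis) and of FLC (right, log axis with its own range) on each of the 4 arrays. Red points are arrays filed as TEKi and blue points arrays filed as wild type, and the legend gives the value-table label. Each of the 9 genes stays within 1.72-fold over the arrays, while FLC spans 98.6-fold.

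Among the RNA-binding proteins, FCA moved the most of the 9 genes between arrays. FCA (AT4G16280, chromosome 4, 9206613 to 9214841, genome release 6 as are all positions here) encodes a protein with RNA recognition motifs and a WW domain that binds FY. Its intensity was 28945 and 30270 on TEKi 1 and TEKi 2, against 22551 and 38851 on wild type 1 and wild type 2. Both extremes were wild-type arrays in the array files, so the groups overlapped and the log2 difference was 2.9e-05 (SE 0.347, n = 2 per group, adjusted p = 1). With value-table labels it was 38851 and 30270 in TEKi and 22551 and 28945 in wild type, and the groups did not overlap. That difference was 0.42 (SE 0.245, n = 2 per group, adjusted p = 0.565), a 1.34-fold higher mean in TEKi with a 95% interval of 0.816 to 2.21-fold, which missed the threshold. The FCA locus makes several transcript forms that differ in their 3' ends and splicing. The array model is AT4G16280.2 with 3 probe pairs of unstated position, so the values cannot be assigned to a form.

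FPA (AT2G43410, chromosome 2, 18033474 to 18038066), an RNA-binding protein that also controls where its own and other transcripts end, had 56583 and 59196 on TEKi 1 and TEKi 2, against 61481 and 48822 on wild type 1 and wild type 2. The groups overlapped with both sets of labels, and the log2 difference was 0.08 (SE 0.209, adjusted p = 1) with array-file labels and -0.13 (SE 0.190, adjusted p = 0.833) with value-table labels. The order of its arrays was not that of FCA: wild type 1 was the highest array for FPA and the lowest for FCA, and wild type 2 the reverse.

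FY (AT5G13480, chromosome 5, 4326587 to 4331641) is the WD-repeat partner of FCA and a subunit of the 3' end processing machinery. It had 35954 and 29844 on TEKi 1 and TEKi 2, against 31727 and 29851 on wild type 1 and wild type 2. The TEKi arrays enclosed the wild-type arrays, and the log2 difference was 0.09 (SE 0.195, adjusted p = 1). With value-table labels the TEKi arrays (29851 and 29844) lay below the wild-type arrays (31727 and 35954), by a log2 difference of -0.18 (SE 0.166, adjusted p = 0.735).

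FLK (AT3G04610, chromosome 3, 1250568 to 1254878), a protein with KH RNA-binding domains, had 53498 and 50046 on TEKi 1 and TEKi 2, against 55633 and 57135 on wild type 1 and wild type 2. Both TEKi arrays were below both wild-type arrays, with a log2 difference of -0.12 (SE 0.166, adjusted p = 1). With value-table labels the groups overlapped and the difference was -0.03 (SE 0.169, adjusted p = 0.969).

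Of the chromatin proteins, FLD (AT3G10390, chromosome 3, 3229298 to 3231824), a relative of the human histone demethylase LSD1, had 22850 and 21860 on TEKi 1 and TEKi 2, against 26307 and 20960 on wild type 1 and wild type 2. The TEKi arrays lay between the wild-type arrays, and the log2 difference was -0.07 (SE 0.207, adjusted p = 1). With value-table labels both TEKi arrays (20960 and 21860) were below both wild-type arrays (26307 and 22850), with a difference of -0.20 (SE 0.172, adjusted p = 0.717).

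The genes of the 3 proteins that act with TEK had ranges of 1.13 to 1.22-fold over the arrays. FLK, LD and FY, at 1.14 to 1.20-fold, had similar ones. FVE (also MSI4, AT2G19520, chromosome 2, 8463018 to 8466594), a WD-repeat histone-binding protein, had 62729 and 55281 on TEKi 1 and TEKi 2, against 56520 and 55388 on wild type 1 and wild type 2. Of its 4 values 3 lay close together and TEKi 1 was the high one, so the groups overlapped (log2 difference 0.07, SE 0.177, adjusted p = 1). With value-table labels that array counted as wild type, TEKi (55388 and 55281) lay below wild type (56520 and 62729), and the difference was -0.11 (SE 0.162, adjusted p = 0.846).

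MSI5 (AT4G29730, NFC5 in RefSeq, chromosome 4, 14558991 to 14562544), a close homolog of FVE with overlapping function, had 8798 and 7389 on TEKi 1 and TEKi 2, against 8961 and 8901 on wild type 1 and wild type 2. It rests on 2 probe pairs where the other 8 genes rest on 3. Both TEKi arrays were below both wild-type arrays, TEKi 1 close to them and TEKi 2 further off, and the log2 difference was -0.15 (SE 0.189, adjusted p = 1). With value-table labels the groups overlapped and the difference was -0.13 (SE 0.183, adjusted p = 0.830).

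HDA6 (AT5G63110, chromosome 5, 25332863 to 25335573), the histone deacetylase of these complexes, which also silences transposons and ribosomal RNA genes, had 35380 and 29066 on TEKi 1 and TEKi 2, against 33998 and 32865 on wild type 1 and wild type 2. The TEKi arrays enclosed the wild-type arrays (log2 difference -0.06, SE 0.197, adjusted p = 1). With value-table labels TEKi (32865 and 29066) was below wild type (33998 and 35380), with a difference of -0.17 (SE 0.167, adjusted p = 0.755).

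LD (AT4G02560, chromosome 4, 1123492 to 1128397), a homeodomain protein that binds and restrains the FLC activator SUF4, had 31588 and 33636 on TEKi 1 and TEKi 2, against 33251 and 36775 on wild type 1 and wild type 2. The groups overlapped (log2 difference -0.10, SE 0.175, adjusted p = 1). With value-table labels both TEKi arrays (36775 and 33636) were above both wild-type arrays (33251 and 31588), with a difference of 0.12 (SE 0.162, adjusted p = 0.826).

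**Figure D2:**
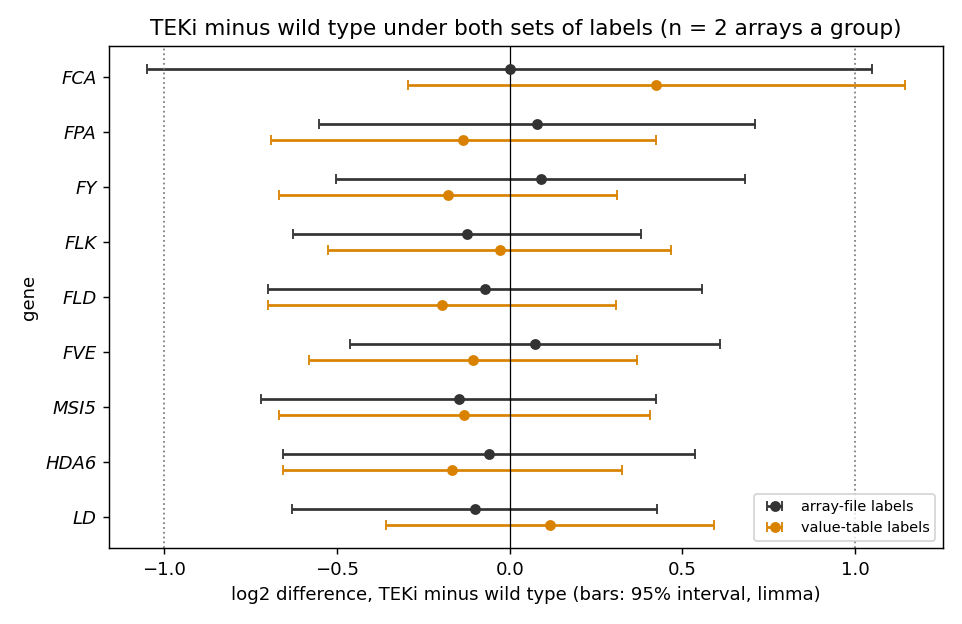
Log2 difference in intensity, TEKi minus wild type, of the 9 genes with array-file labels (black) and value-table labels (orange). Points are limma estimates from 2 arrays per group, bars are 95% intervals and dotted lines mark a 2-fold difference. All 18 intervals include 0, and only those of FCA reach past 2-fold.

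The intervals bound how large a difference these arrays leave room for. For 8 of the 9 genes the 95% interval lay inside 2-fold in both directions with either set of labels. Its outermost bounds over those 8 genes were 0.607-fold and 1.64-fold with array-file labels and 0.616-fold and 1.51-fold with value-table labels. FCA was the exception, with intervals of 0.483 to 2.07-fold and 0.816 to 2.21-fold. These intervals are for 1 gene at a time and use the spread that limma shares over all genes. The highest deposited intensity was 64046.8. The brightest array of FVE was 1.02-fold below it, that of FPA 1.04-fold and that of FLK 1.12-fold, which left little room for a higher reading of these 3 genes. For the other 6 the room above the brightest array ran from 1.65-fold for FCA to 7.15-fold for MSI5.

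Groups that do not overlap are common with 2 arrays each, at 30% of all genes with array-file labels and 44.8% with value-table labels. With array-file labels 2 of the 9 (MSI5 and FLK) had both TEKi arrays below both wild-type arrays, where 14.7% of all genes did, and 0 of the 9 had both above, where 15.3% did. With value-table labels 6 of the 9 were apart: 4 (FY, FLD, FVE and HDA6) had both TEKi arrays below, where 17.1% of all genes did, and 2 (FCA and LD) had both above, where 27.7% did. No gene was apart with both sets of labels, and the differences of the 4 genes below were at most 0.20 in size on the log2 scale. The exact permutation test of 2 arrays against 2 cannot reach the threshold, and no test is drawn from these counts.

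TEKi 2 and wild type 1 are the only pair whose labels do not depend on the source, and with 1 array each they have no replicate check. Between them FCA was 1.34-fold higher on TEKi 2, LD 1.01-fold, and the other 7 were lower, MSI5 the most at 0.825-fold, followed by FLD at 0.831-fold and HDA6 at 0.855-fold. None of the 9 differed by over 2-fold, where 21.6% of all genes did. That share includes dimmer genes, while 7 of the 9 are in the brightest quartile. The median absolute log2 difference of this pair was 0.153 over the 9 genes, 0.375 over all genes and 0.136 over that quartile. On the same pair FLC was 0.010-fold, at 314 on TEKi 2 against 30904 on wild type 1. FLC was thus lower in plants labelled late flowering, opposite to the rise that loss of a pathway gene typically brings. The cause was not tested.

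The spread over the 4 arrays, which needs no group labels, was small for most of the genes. The ratio of the highest to the lowest array was 1.13 for FVE, 1.14 for FLK, 1.16 for LD, 1.20 for FY, 1.21 for MSI5, 1.22 for HDA6, 1.26 for FLD, 1.26 for FPA and 1.72 for FCA. Its median was 1.21 over the 9 genes, 1.71 over all genes tested and 1.25 over the 7588 genes in the brightest quartile, which holds 7 of the 9 (all but FLD and MSI5). Among the genes of that quartile, FVE had a wider range than 21.5% of genes, FLK than 23.3%, FPA than 52.1% and FCA than 93.7%. The brightest arrays of FVE, FPA and FLK were 1.02, 1.04 and 1.12-fold below the highest deposited intensity. The part of that limit in their ranges was not tested.

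**Figure D3:**
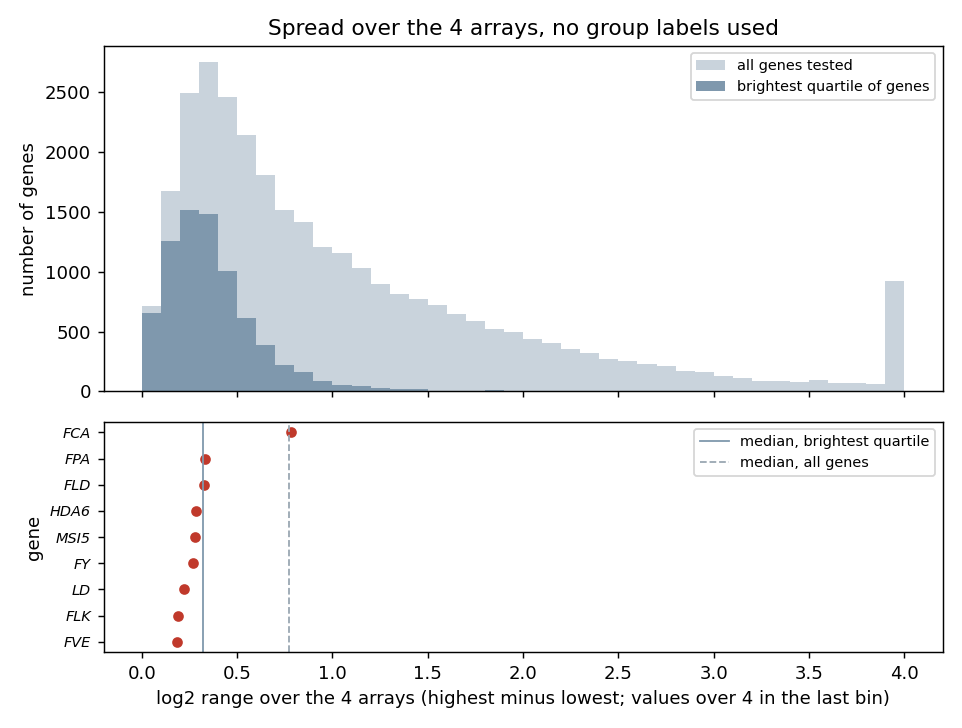
Top, number of genes by log2 range over the 4 arrays (highest minus lowest) for all genes tested and for the brightest quartile. Bottom, the log2 range of each of the 9 genes, with lines at the medians of both gene sets. FCA (log2 range 0.78) stands at the median of all genes, and the other 8 genes lie at 0.33 or below.

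Neighbouring patterns across the arrays were compared by the root mean square difference of log2 intensities, each gene centred on its own mean over the 4 arrays. Among the 9 genes, FY and FVE were each other's nearest (0.038), as were HDA6 and MSI5 (0.047) and FPA and FLD (0.088). FY and FVE share a high TEKi 1 array, HDA6 and MSI5 share a low TEKi 2 array, and FPA and FLD share a high wild type 1 and a low wild type 2. FCA lay apart, with LD nearest at 0.232. Over all genes the 3 patterns nearest to FCA were those of AT4G02840 (0.0059), AT5G51540, annotated as a metalloendopeptidase (0.017), and AT1G28530 (0.018). AT4G02840 had 9247 and 9777 on TEKi 1 and TEKi 2, against 7226 and 12444 on wild type 1 and wild type 2. With 4 arrays and 30352 genes, close matches are numerous, and these are a description.

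Over the 9 genes the arrays paired off differently from the table as a whole. Over all genes the closest pair of arrays was TEKi 2 with wild type 2 (median absolute log2 difference 0.269), which the value table puts in 1 group, and the next was TEKi 1 with wild type 1 (0.334), which it also puts in 1 group. Over the 9 genes the closest pairs were wild type 1 with wild type 2 (0.088) and TEKi 1 with TEKi 2 (0.096), the groups of the array files. TEKi 2 with wild type 2 stood at 0.177 and TEKi 1 with wild type 1 at 0.120. The largest difference of a single gene of the 9 was also between wild type 1 and wild type 2, at 0.785 for FCA, against 0.284 to 0.425 for the other pairs. In the brightest quartile, which holds 7 of the 9, the closest pairs were TEKi 2 with wild type 2 (0.110) and TEKi 2 with wild type 1 (0.136). TEKi 1 with wild type 1 (0.168) was wider there than TEKi 1 with TEKi 2 (0.143) or wild type 1 with wild type 2 (0.156). The pairing over all genes thus held only in part among bright genes. Across all genes, Pearson's r of log2 intensity was 0.974 for TEKi 2 with wild type 2 and 0.972 for TEKi 1 with wild type 1, and 0.929 to 0.934 for the other 4 pairs. These are medians of 9 small differences, given as a description, and neither source of labels is settled by them.

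No gene in the lists of partners and relatives was called, where 0% of all genes were with array-file labels and 2.22% with value-table labels. The median log2 difference over all genes tested was 0.0060 and 0.090. In a list of 18 genes of 3' end processing and COOLAIR control (subunits of the cleavage factors CSTF and CPSF, PCFS4, CDKC2, PRP8, DCL4 and others), 0 were called with either set of labels, and the median log2 difference was 0.01 with array-file labels and 0.05 with value-table labels. The smallest unadjusted p values with array-file labels were those of CSTF64, the RNA-binding subunit of the CSTF factor (15221 and 17814 on TEKi 1 and TEKi 2, against 18374 and 19029 on wild type 1 and wild type 2, log2 difference -0.18, adjusted p = 1), and of CPSF30, a zinc-finger subunit of CPSF (-0.24, adjusted p = 1). With value-table labels 1 gene of the 18 had an unadjusted p under 0.05 (limma), where 14.4% of all genes did. This was CPSF160, the large CPSF subunit. It had 32257 and 28164 in the arrays labelled TEKi and 21271 and 19949 in those labelled wild type (log2 difference 0.55, SE 0.172, adjusted p = 0.315). The next was AT1G73820 (0.42, adjusted p = 0.381). With array-file labels CPSF160 stood at -0.14 and AT1G73820 at 0.03. CSTF64 stood at 0.14 and CPSF30 at 0.21 with value-table labels. The brightest arrays of PRP8, CDKC2 and FIPS5, also in this list, were 1.01, 1.02 and 1.05-fold below the highest deposited intensity. That left little room for a higher reading of these genes.

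In a list of 13 chromatin and RNA partners (LDL1, LDL2, HDA5, SDG26, REF6, DDB1A, CUL4, PRMT5, PRMT10, HDC1, SUF4, GRP7 and PEP) 0 were called with either set of labels, with medians of -0.02 and 0.04. LDL2, a relative of FLD that acts with it in repressing FLC, had 10871 and 9140 on TEKi 1 and TEKi 2, against 6872 and 7390 on wild type 1 and wild type 2. Both TEKi arrays were higher, 0.48 apart in log2 (SE 0.193, adjusted p = 1), but the value-table labels gave -0.07 (adjusted p = 0.955). PEP, a KH-domain protein that opposes FLK at FLC, had a log2 difference of -0.27 with both sets of labels (adjusted p = 1 and 0.671), and its lowest array was TEKi 2 at 36768 and its highest wild type 1 at 53429. PRMT10, an arginine methyltransferase, stood at 0.31 with value-table labels (adjusted p = 0.514) and at 0.03 with array-file labels. HDC1 was at the highest deposited intensity, 64046.8, on TEKi 2, wild type 1 and wild type 2. GRP7 was at it on TEKi 1 and wild type 1. That left little room for a higher reading of HDC1 and GRP7.

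Of 9 relatives of these proteins (MSI1, MSI2, MSI3, HDA19, HDA7, HDA9, LDL3, GRP8 and DDB1B) 0 were called with either set of labels, with medians of -0.06 and 0.13. MSI1, a homolog of FVE and MSI5 found in Polycomb and chromatin assembly complexes, had 15912 and 11391 on TEKi 1 and TEKi 2, against 14989 and 13445 on wild type 1 and wild type 2 (-0.08, adjusted p = 1, and -0.32, adjusted p = 0.554, with value-table labels). HDA7, a relative of HDA6, was dim, at 101 and 534 on TEKi 1 and TEKi 2, against 363 and 476 on wild type 1 and wild type 2, and its 5.28-fold range was the widest in the 3 lists (adjusted p = 1 and 0.517). LDL3, a further relative of FLD, was at 0.32 (adjusted p = 1) and GRP8, an RNA-binding relative of GRP7, at 0.20 (adjusted p = 1) with array-file labels. With value-table labels LDL3 was at 0.13 and GRP8 at -0.04. The brightest array of GRP8 was 1.01-fold below the highest deposited intensity, and that of HDA19 1.05-fold.

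**Figure D4:**
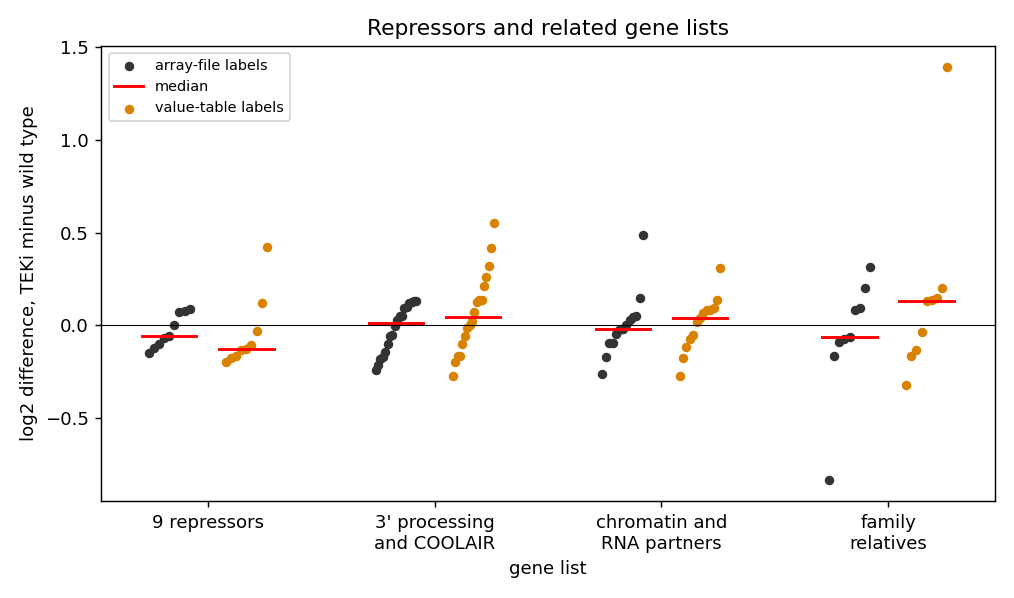
Log2 difference, TEKi minus wild type, of the 9 repressors and of the genes of the 3 related lists, with array-file labels (black, left of each pair) and value-table labels (orange, right). Each point is a gene and red bars are list medians, which all lie between -0.13 and 0.13, and the point at 1.39 is the dim HDA7.

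Set beside FLC, the contrast was in the size of the differences. With value-table labels FLC intensity was 767 and 314 in TEKi and 30904 and 15709 in wild type, which is -5.49 in log2 (SE 0.629) and missed the threshold at adjusted p = 0.0624, while the differences of the 9 genes that repress it did not exceed 0.42 in size. With array-file labels the FLC difference was -1.13 with an SE of 3.03 (adjusted p = 1), since a high and a low array fell into each group. These are transcript intensities, and protein, complex assembly and activity at FLC were not measured.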

How the data were processed

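Total RNA of 4 whole-seedling samples was measured on single-colour Cy3 NimbleGen arrays, 1 per sample. The values the authors deposited are linear intensities, 1 per gene model. RMA is named in the submitters' processing notes, with version and settings not given in the sources used here. The deposited error column was not used, and no detection calls were used. Positions follow release 6 per the file headers and annotation column. Symbols came from a RefSeq table of another assembly (TAIR10.1), in which 29976 of 30361 loci matched.

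Groups follow the labels of the array files, with the value table as the second set. After 9 genes with an exact 0 were left out, log2 intensities of 30352 genes were fitted with limma 3.58.1 in R 4.3.3 (lmFit and eBayes, 2-sided, Benjamini-Hochberg over all genes, threshold 0.05), with no pseudocount or filter on dim genes. Every SE, 95% interval and adjusted p is from that fit, with n = 2 arrays per group. The procedure was tested on simulated data.

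The 9 genes and the lists were chosen with earlier results of these data known. Named were the 9 genes, FLC, TEK, the 2 genes of each list with the smallest unadjusted p under each set of labels, and the 3 patterns nearest to that of the gene with the widest range. Markers were 5 per tissue.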

Additional observations from a re-analysis of the deposited data

How the results depend on the processing

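Under every alternative tried, for both sets of labels, 0 of the 9 genes were called. The alternatives were further quantile normalization, median centring, leaving out the lowest quartile of level, a pseudocount of 50, a mean-variance trend, plain per-gene variance, a replicate block and leaving out each array. The smallest adjusted p of any of the 9 was 0.404. Over all genes the count was 0 with array-file labels under each of these. With value-table labels it was 674, and it was 667 with quantile normalization, 784 with median centring, 906 without the lowest quartile and 862 with the pseudocount. It became 1150 with a mean-variance trend, and 0 with plain per-gene variance, with the replicate block and without any 1 of the 4 arrays (0 to 0), where the construction leaves fewer degrees of freedom. The smallest adjusted p was 0.0973 with plain variance and 0.0753 with the block. The labels do not tie arrays of the same number to each other, but such arrays deviated together. The correlation across genes was 0.65 with array-file labels and 0.11 with value-table labels, and its source was not tested. Arrays with the same number in the array files form the groups of the value table. Wild type 1 and TEKi 1 are its wild-type group, and wild type 2 and TEKi 2 its TEKi group. With value-table labels the number in turn follows the array-file groups. The block therefore equals the other set of labels and is not a separate replicate check. It changed no call among the 9. Signs of the differences were not stable, and the cause was not tested. FCA with array-file labels went to -0.034 with median centring and -6.0e-05 with the pseudocount. With value-table labels FPA (-0.13), FVE (-0.11), FY (-0.18) and LD (0.12) took the other sign. Without single arrays, with array-file labels, log2 differences ran from -0.39 to 0.39 for FCA, -0.24 to 0.093 for FLD, -0.087 to 0.25 for FPA, -0.017 to 0.16 for FVE, -0.044 to 0.22 for FY and -0.20 to 0.082 for HDA6. With value-table labels they ran from -0.12 to 0.067 for FLK, -0.27 to 0.0052 for FPA and -0.27 to 0.0037 for MSI5. The other single-array ranges kept their sign but not their size: with value-table labels FCA ran from 0.24 to 0.60, FLD from -0.30 to -0.094, FVE from -0.18 to -0.031, FY from -0.27 to -0.088, HDA6 from -0.25 to -0.078 and LD from 0.054 to 0.18, and with array-file labels FLK ran from -0.17 to -0.076, LD from -0.17 to -0.029 and MSI5 from -0.27 to -0.022. The number of arrays limits what could be detected.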
